A study of Mus musculus with 12 samples.

Results

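Ventricular transcriptomes of hypoxic female mice were compared with those of hypoxic male mice, over autosomal genes. The comparison uses 6 of the 12 RNA sequencing libraries of the study, 3 from each sex at 7% oxygen, and these were chosen by their sex and oxygen labels. Of the 39210 genes in the deposited table, 35379 lie on autosomes. Of these, 13413 had enough reads to be tested, among 13960 genes tested in all.

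All animals were C57BL/6 mice with no genetic change named in the labels. For hypoxic males (MH) and hypoxic females (FH), chamber oxygen was lowered in daily steps of 1% for 14 days to 7% and then held there for 2 weeks. Normoxic males (MN) and normoxic females (FN) breathed room air with 20.9% oxygen for 4 weeks. RNA came from frozen ventricles, with left and right not told apart in the labels, which give no age. The labels name no pooling of animals and no batches. Separate animals for each library are not stated in the labels. The tests therefore weigh differences against the spread among these samples, and that spread may be technical. A difference in a transcript from tissue RNA can come from fewer cells of a type or from less RNA per cell, and these cannot be told apart.

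Low blood oxygen raises red cell mass, loads the right ventricle and starts the response driven by hypoxia-inducible factors (HIF) in many cell types of the heart. The heart also holds resident macrophages, fibroblasts and endothelial cells, and these make complement proteins, chemokines and matrix proteins when tissue is stressed. Complement is a cascade of blood proteins: C1, C4 and C2 start its classical branch, C3 is its hub, and C5 to C9 build a pore in cell membranes that clusterin can block.

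Levels are CPM, the estimated counts of a gene per 1000000 counts of its library, with library sizes corrected by TMM, and are given in the order of replicates 1, 2 and 3. Differences are log2 of females minus males with their standard error, from edgeR's quasi-likelihood test over all 12 libraries with Benjamini-Hochberg adjustment. Genes with an adjusted p under 0.05 are said to pass. Where oxygen is not named, males and females are the hypoxic groups. The 6 hypoxic libraries held between 14915830 and 17981426 estimated counts, so 3 counts in a library, taken here as the floor of detection, correspond to between 0.143 and 0.199 CPM. Mitochondrially encoded genes took 15.8% of counts in MH replicate 2 and between 21.5% and 23.1% in the other 5.

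The libraries were checked against the ventricle label, and for atrial and fat tissue. The 12 ventricular cardiomyocyte markers summed to 13316, 12862 and 12405 CPM in the males and 14076, 12755 and 12823 CPM in the females, and none was at 0. Myl7, the atrial regulatory light chain of myosin, was at 0.265, 57.9 and 54.1 CPM in the males and 0.296, 0.384 and 0.781 CPM in the females. Myl4, the atrial essential light chain, was at 4.5, 91.8 and 69 CPM in the males and 2.66, 3.89 and 3.33 CPM in the females. Both transcripts were high in MH replicates 2 and 3, and MH replicate 1 lay among or near the female libraries. Sln, the atrial inhibitor of the calcium pump, had 1, 339 and 225 counts in the males and 0, 3 and 1 in the females, and Mybphl, an atrial relative of myosin-binding protein C, had 0, 143 and 113 and 2, 2 and 1. These 2 genes had too few reads elsewhere to be tested in edgeR. Sln and Mybphl, like the fat genes Adipoq, Cfd, Car3 and Cidec and the secreted atrial protein Dkk3, were picked out after their values were seen.

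Of the 18 atrial markers listed, 13 were tested and 0 passed in edgeR, where 8 had an unadjusted p under 0.05 (9.57% of all autosomal genes had). DESeq2 called Myl4 and Myl7, and also Sln and Mybphl, and limma voom called 0. Their summed level was 1299.5, 2753 and 1919.8 CPM in the males and 999.9, 1154 and 1752 CPM in the females, and between 1 and 4 of the 18 were at 0 in each of these libraries. Nppa, which encodes atrial natriuretic peptide and is also induced in loaded ventricles, made up much of that sum, at 485, 1512 and 797 CPM in the males and 183, 463 and 1046 CPM in the females. Its ranges overlapped, and the difference was -0.72 ± 0.58 (adjusted p = 0.765). The 5 other atrial markers of highest mean level all overlapped between the sexes: Pam, a peptide-amidating enzyme, Kcnj5, Kcnj3 and Kcna5, which are potassium channels, and Tbx5, a cardiac transcription factor. Their differences were -0.44, -0.24, -0.15, 0.51 and -0.42 in that order. Without MH replicates 2 and 3, the difference of Myl4 went from -4.06 to -0.45, that of Myl7 from -6.23 to 0.86, and that of Dkk3 from -1.53 to 0.91.

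The same 2 libraries were high in some fat genes, though not in all of those listed. Adipoq, which encodes the fat hormone adiponectin, was at 0.132, 2.19 and 1.68 CPM in the males and 0, 0.11 and 0.0521 CPM in the females. Cfd, the complement protease adipsin that fat cells secrete, was at 0.728, 16.7 and 12.3 CPM in the males and 0, 0.493 and 1.04 CPM in the females. Car3, a carbonic anhydrase of fat and muscle, was at 0.728, 7.96 and 8.06 CPM in the males and 0.414, 0.657 and 1.25 CPM in the females. MH replicates 2 and 3 lay above the other 4 hypoxic libraries for each of the 3, and none of them passed (adjusted p = 0.278, 0.304 and 0.373).

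Several other fat markers did not follow that order. Plin1, which coats fat droplets in adipocytes, had 0 counts in all 6 libraries, and Lep, which encodes leptin, had 0 in all but FH replicate 1, which had 1. Fabp4, a fatty acid carrier of fat cells and capillaries, was at 935, 1180.2 and 1072 CPM in the males and 777, 940.3 and 1022 CPM in the females and its ranges overlapped. The summed level of the 24 adipocyte markers was 1656, 1742 and 1534 CPM in the males and 1437, 1392 and 1517 CPM in the females, with between 2 and 6 of them at 0. Of the 16 tested, 0 passed in edgeR or limma voom. In edgeR 4 had an unadjusted p under 0.05, where 9.57% of all autosomal genes had. DESeq2 called Cidec, a fat droplet protein that was not tested in edgeR. Cidec had 3, 43 and 35 counts in the males and 0, 1 and 1 in the females. Among the other 5 markers of highest level, Dgat2, Plin4, Gpd1 and Aqp7, which handle triglyceride, glycerol or water, overlapped between the sexes, with differences of -0.24, 0.30, -0.25 and -0.26. Lipe, the hormone-sensitive lipase, was at 42.5, 21.8 and 23.3 CPM in the males and 17.7, 16.3 and 21.3 CPM in the females; the males lay above the females, MH replicate 1 was the highest, and it did not pass (adjusted p = 0.536).

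**Figure D1:**
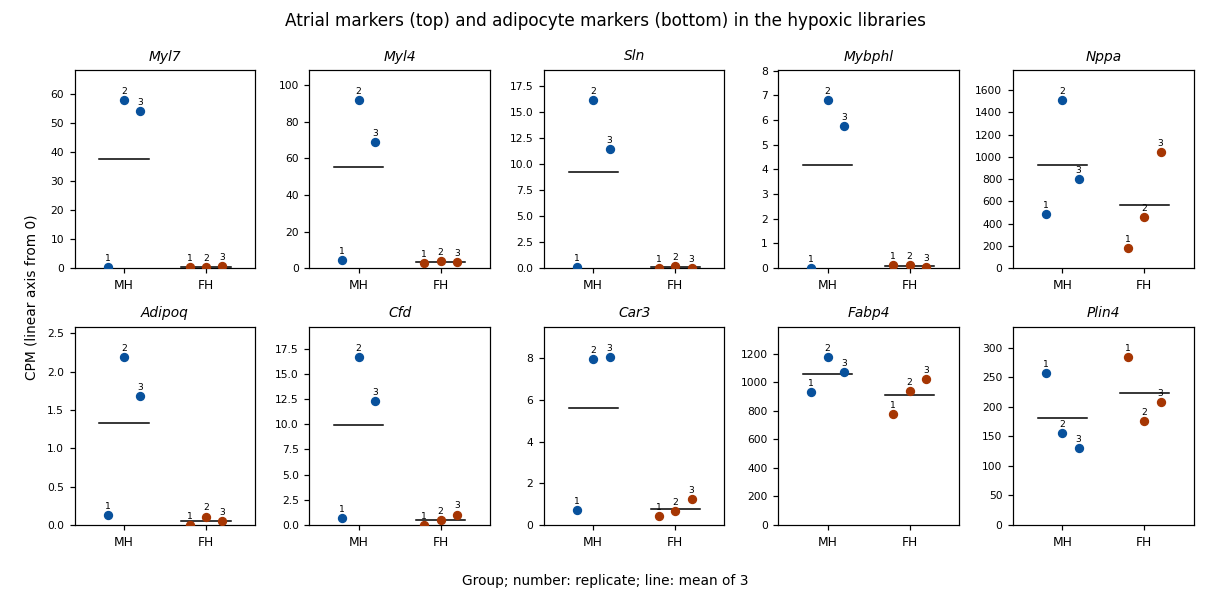
CPM of 5 atrial markers (top row) and 5 adipocyte markers (bottom row) in each of the 6 hypoxic libraries, with the replicate number above each point and a line at the mean of 3. MH replicates 2 and 3 stand above the other 4 libraries for Myl7, Myl4, Sln, Mybphl, Adipoq, Cfd and Car3, while Nppa, Fabp4 and Plin4 overlap between the sexes.

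Of the 13413 autosomal genes tested, 13 passed between hypoxic females and hypoxic males (0.0969%). The females were higher in 2 (0.0149%) and the males in 11 (0.082%), and 11 of the 13 differed at least 2-fold. The excess in males was not general. DESeq2 called 162 genes (1.1%), 85 higher in females and 77 in males, and at an unadjusted p under 0.05 in edgeR 672 genes were higher in females (5.01%) and 612 in males (4.56%). Without FH replicate 1, edgeR called 21 genes higher in females and 10 in males. Limma voom called 13 genes, 2 higher in females and 11 in males, and 11 of these are among the 13. Adjustment ran over all 13960 genes, X and Y genes included; adjusted over autosomal genes alone, 6 genes passed, namely Hdgfl2, Spp1, C4b, Dixdc1, Wfdc17 and Zfp799. The count depended on single libraries: it was 4 without MH replicate 2 or without FH replicate 2, 6 without FH replicate 3, 10 without MH replicate 3, 31 without FH replicate 1 and 32 without MH replicate 1.

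Hdgfl2, Spp1 and C4b passed whichever of the 6 hypoxic libraries was left out. Without MH replicate 2 these 3 were the only ones of the 13 to pass. Spp1 was tested only because the hypoxic males brought it over the filter on low counts, so its passing is a description. Dixdc1 also passed without FH replicate 2, and Wfdc17 without FH replicate 3. Without MH replicate 3, Zfp799, Dixdc1 and Wfdc17 passed beside those 3. Without FH replicate 1, the calls of Zfp799, Fuca1, Cdh22, C7 and Hp were lost, and without MH replicate 1 that of Clu. The adjusted p of a lost call lay between 0.0544 for Zfp799 and 0.284 for Hp, and the sign of each of the 13 stayed. Fitted on the 6 hypoxic libraries alone, 7 genes passed, and 3 of them were among the 13. Over all 23 alternative settings, C7, Cdh22 and Fuca1 each passed in 8.

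In each of the 13 genes, the 3 male libraries lay entirely to one side of the 3 female libraries. Over all genes tested, FH lay above MH in 7.22% and MH above FH in 8.16%. The difference between these same libraries chose the 13, so their separation is a description and no separate support. The 13 kept their sign without MH replicates 2 and 3, and each had an unadjusted p under 0.05 there (4.98% of all genes), but 2 of them, Hdgfl2 and C4b, passed the adjusted threshold. The 4 hypoxic libraries left had also chosen the 13, so these signs and p-values are a description and no separate support. The hypoxic group that stood apart from normoxia differed between genes. In 8 genes (C4b, C7, Cdh22, Clu, Fuca1, Hp, Spp1 and Wfdc17) the 3 hypoxic male libraries lay above all 9 others, as in 2.45% of all tested genes. In Cxcl14, Dixdc1 and Hdgfl2 the hypoxic female libraries lay below all 9 others (1.1% of tested genes), and in Itpkb and Zfp799 they lay above them (1.7%). Because the hypoxic difference chose the 13, nothing is read from how these counts compare with the shares over all genes.

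**Figure D2:**
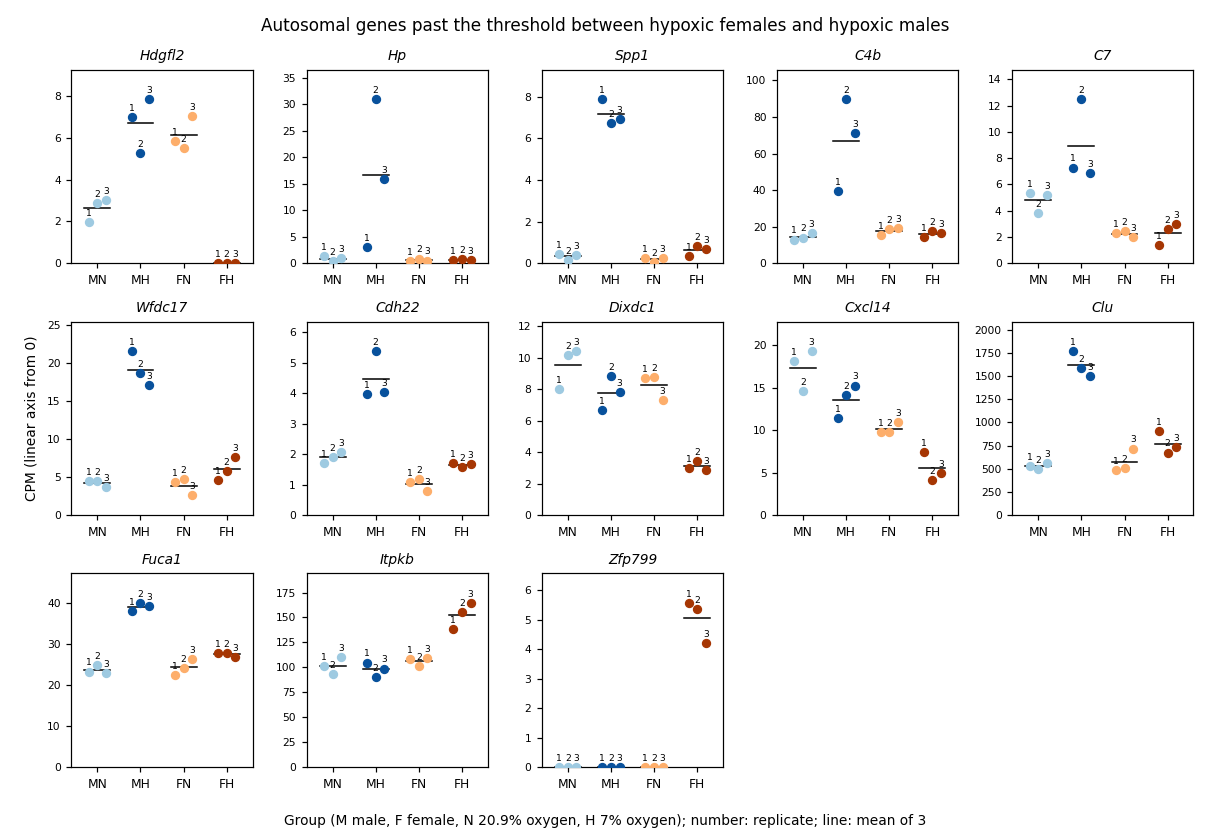
CPM in all 12 libraries of the 13 autosomal genes past the threshold between hypoxic females (FH) and hypoxic males (MH), with the replicate number above each point and a line at the mean of 3. In 8 genes the hypoxic males stand above the other 9 libraries, in 3 the hypoxic females stand below them, and in 2 the hypoxic females stand above them.

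C4b and C7, which encode complement proteins, were higher in hypoxic males. C4b, the C4 protein of the classical and lectin branches, was at 39.5, 89.7 and 71.2 CPM in the males and 14.4, 17.5 and 16.4 CPM in the females, and the difference was -2.05 ± 0.25 (adjusted p = 0.00605). MH replicate 1 was the lowest of the males and was still above every female library, and the normoxic libraries, at 13, 14 and 16.6 CPM in the normoxic males and 15.2, 18.8 and 19.4 CPM in the normoxic females, lay near the female level. Without MH replicates 2 and 3 the difference was -1.29 (adjusted p = 0.0467), and over all alternative settings the adjusted p of C4b ran from 1.75e-12 to 0.138. C4b has a near-identical neighbour, C4a, so reads can be split between them; C4a was assigned at most 34 counts in a hypoxic library.

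C7, which joins the membrane pore, was at 7.28, 12.5 and 6.88 CPM in the males and 1.36, 2.58 and 2.97 CPM in the females, a difference of -1.94 ± 0.31 (adjusted p = 0.0407). The males did not overlap with the females, and MH replicate 2 was the highest. The normoxic libraries were at 5.35, 3.81 and 5.18 CPM in the normoxic males and 2.32, 2.46 and 1.97 CPM in the normoxic females, where the males also lay above the females and C7 did not pass. C3, the hub of the cascade, was at 175, 187 and 165 CPM in the males and 92.2, 94 and 94.5 CPM in the females, with a difference of -0.91 ± 0.15 that did not pass (adjusted p = 0.0585). Its female libraries were almost equal to one another, and its difference was -0.90 without MH replicates 2 and 3.

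Of 16 complement genes tested, 2 were higher in males (C4b and C7) and 0 were higher in females in edgeR, while DESeq2 called C4b, C7 and C3 and limma voom C4b. At an unadjusted p under 0.05, 7 were higher in males and 0 in females, where 4.56% and 5.01% of all autosomal genes were. The differences were negative in 15 of 16 genes, and in 6858 of the 13413 autosomal genes tested. The median was -0.47 against -0.0059 over all autosomal genes. The list's median was 0.14 in normoxia and -0.32 at 7% oxygen without MH replicates 2 and 3.

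Clu and Hp encode secreted proteins that limit damage. Clu encodes clusterin, a chaperone that binds the complement pore, and was at 1769, 1583 and 1503 CPM in the males and 908, 674 and 733 CPM in the females. The difference was -1.07 ± 0.16 (adjusted p = 0.034), with the males above the highest female library. Normoxic levels were 532, 493 and 565 CPM in the normoxic males and 483, 509 and 718 CPM in the normoxic females. FH replicate 2 alone lay within the normoxic range, below FN replicate 3, and the other hypoxic females and the hypoxic males lay above that range. All normoxic libraries but FN replicate 3 lay below every hypoxic female.

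Hp encodes haptoglobin, the acute-phase protein that binds free haemoglobin, and was at 3.11, 30.9 and 15.9 CPM in the males and 0.651, 0.712 and 0.677 CPM in the females. Its difference was -4.60 ± 0.75 (adjusted p = 0.0436). The 3 male libraries spread over a wide range with MH replicates 2 and 3 highest, and without those 2 the difference was -2.18 and did not pass. Hp is also made by fat cells, and its order among the males is that of Cfd and Adipoq above. That order is not particular to fat genes, as Myl7, Myl4, C4b and the neutrophil marker S100a8 share it. The part of fat in the level of Hp was not tested. Hp lies outside the rule for naming genes, having a mean log2 CPM under 1, and is named because it passed.

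Spp1 and Wfdc17, which macrophages can make, and the chemokine gene Cxcl14 were higher in hypoxic males. Spp1, which encodes the secreted phosphoprotein osteopontin, was at 7.88, 6.72 and 6.94 CPM in the males and 0.355, 0.822 and 0.677 CPM in the females. The difference was -3.52 ± 0.42 (adjusted p = 0.00605), an 11.4-fold higher level in males. Spp1 needed the hypoxic males, where it is high, to pass the filter on low counts, so its test is a description. The 3 male libraries were close together, MH replicate 1 was the highest of them, and the normoxic libraries had 0.44, 0.163 and 0.389 CPM in the normoxic males and 0.258, 0.0585 and 0.247 CPM in the normoxic females. Without MH replicates 2 and 3 the difference was -3.65, as large as with them, and did not pass (adjusted p = 0.144).

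Wfdc17, a small secreted protein with a whey acidic protein domain that macrophages make, was at 21.5, 18.6 and 17.1 CPM in the males and 4.56, 5.81 and 7.6 CPM in the females. It differed by -1.67 ± 0.23 (adjusted p = 0.0181) and by -1.85 without MH replicates 2 and 3. The normoxic libraries, at 4.46, 4.46 and 3.63 CPM in the normoxic males and 4.32, 4.68 and 2.59 CPM in the normoxic females, lay below the hypoxic males. Cxcl14, a chemokine of connective tissue, was at 11.5, 14.1 and 15.2 CPM in the males and 7.4, 4.16 and 5 CPM in the females, with a difference of -1.30 ± 0.20 (adjusted p = 0.034). The normoxic values were 18.2, 14.6 and 19.3 CPM in the normoxic males and 9.73, 9.82 and 11 CPM in the normoxic females, and the hypoxic females were the lowest of the 4 groups.

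Of 19 inflammatory and chemokine genes tested, 1 passed (Cxcl14, higher in males), and DESeq2 called 6, all higher in males. At an unadjusted p under 0.05, 9 were higher in males and 0 in females, where 4.56% and 5.01% of all autosomal genes were. The libraries did not overlap in 10 of the 19, with males above in each, as in 8.16% of all. The list's median was -0.76 at 7% oxygen and -0.75 without MH replicates 2 and 3, whereas in normoxia it was 0.54.

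Among its members, Serpina3n, a secreted protease inhibitor of the acute phase, was at 106, 151 and 183 CPM in the males and 21.1, 26.6 and 44.8 CPM in the females. Its 3 male values lay above the female ones, and the difference of -2.25 ± 0.47 did not pass (adjusted p = 0.143). Ccl6, a chemokine of myeloid cells, was at 51.8, 47.4 and 37.4 CPM in the males and 21.9, 22.4 and 29.4 CPM in the females, and did not pass either, at -0.89 ± 0.19 (adjusted p = 0.155). In normoxia Ccl6 had the other sign, at 0.81.

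Neutrophil markers had the lowest median of the 47 lists with at least 5 genes tested, and 0 of 6 passed in edgeR or limma voom, while DESeq2 called Lcn2, S100a8 and S100a9. Lcn2, the iron-trapping protein lipocalin 2, which injured heart cells also make, was at 14.5, 17.3 and 12.9 CPM in the males and 3.91, 3.07 and 3.8 CPM in the females. S100a8 and S100a9, the 2 chains of calprotectin, were at 1.85, 6.1 and 3.11 and 4.24, 11.4 and 4.13 CPM in the hypoxic males. In the hypoxic females they were at 0.651, 0.822 and 0.573 and 1.12, 2.03 and 1.35 CPM. The males lay above the females in all 3 genes (adjusted p = 0.155, 0.19 and 0.221). Of the 6 markers tested, 5 had an unadjusted p under 0.05, all higher in males (4.56% of all autosomal genes were), and the median was -2.09, or -1.46 without MH replicates 2 and 3.

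The summed neutrophil level was 27.1, 44.9 and 24.3 CPM in the males and 8.41, 9.97 and 8.54 CPM in the females, with 0 to 3 of the 10 markers at 0 in each library. The sum over 15 macrophage and monocyte markers was 753, 639.7 and 597 CPM in the males and 385, 544 and 579 CPM in the females, with MH replicate 1 highest and FH replicate 1 lowest, and no marker was at 0. Of these 15, 11 had a negative and 4 a positive difference, with a median of -0.23. At an unadjusted p under 0.05 in edgeR, 1 was higher in males and 1 in females, where 4.56% and 5.01% of all autosomal genes were. Lyz2, the lysozyme of myeloid cells, made up much of the sum. It was at 349, 303 and 264 CPM in the males and 144, 213 and 222 CPM in the females. It did not pass in edgeR (adjusted p = 0.247), while DESeq2 called it. Whether the number of such cells plays a part in the complement and chemokine levels was not tested.

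**Figure D3:**
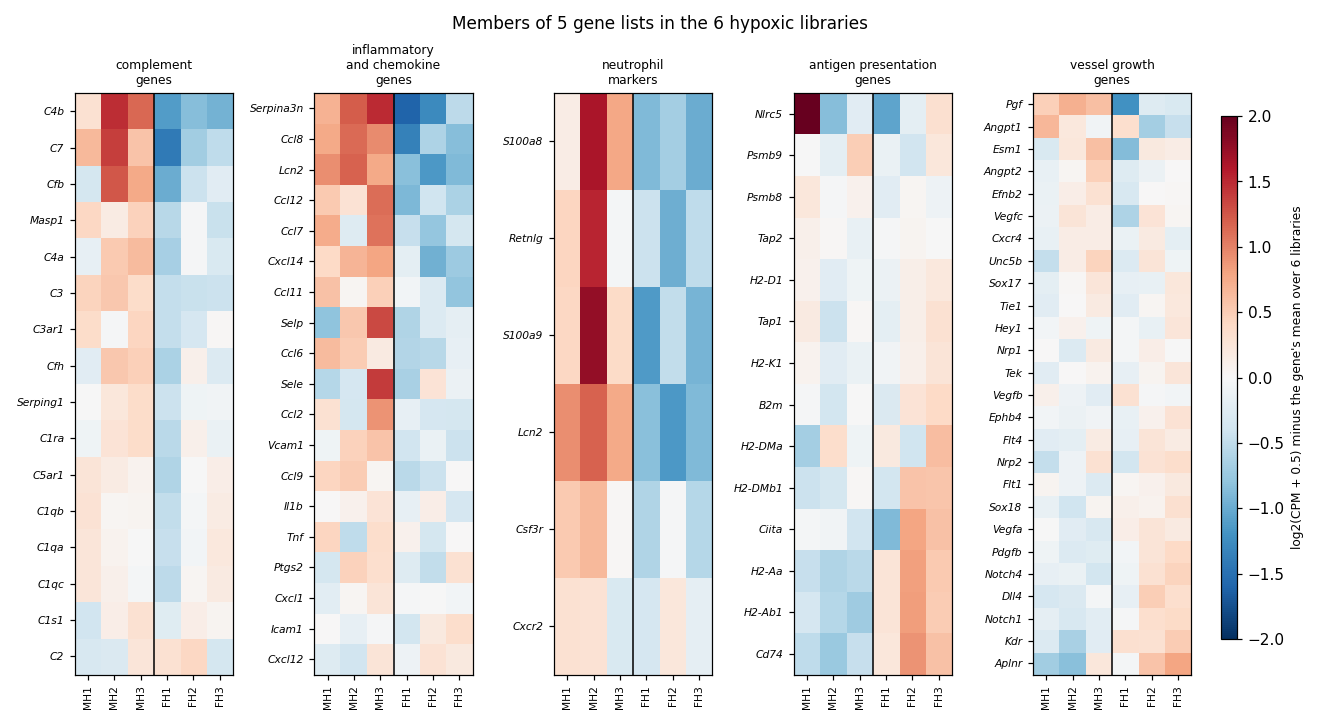
Tested members of 5 gene lists in the 6 hypoxic libraries; colour is log2(CPM + 0.5) minus the gene's mean over the 6 libraries, and rows are ordered by the difference between the sexes. Rows at the top of the complement, inflammatory and neutrophil panels are higher in the 3 male libraries, and H2-Aa, H2-Ab1 and Cd74 at the foot of the antigen presentation panel are higher in the 3 female libraries.

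Promoters of genes that were higher in hypoxic males are shown so that their sequences can be set side by side. Those shown were chosen because they hold a match of the core given below. RefSeq promoters (GRCm38.p6, 250 bases before to 50 bases after a start site) were at hand for 10 of the 13 genes, as 12 sequences. Those of Spp1 at its second start site, Wfdc17 and C7 follow, 5′ to 3′ on the strand of the gene, with matches of TTNNGNAA on either strand in capitals. This is a loose core bound by C/EBP factors, which drive many acute-phase and macrophage genes.
Spp1, chr5:104435942-104436241, plus strand: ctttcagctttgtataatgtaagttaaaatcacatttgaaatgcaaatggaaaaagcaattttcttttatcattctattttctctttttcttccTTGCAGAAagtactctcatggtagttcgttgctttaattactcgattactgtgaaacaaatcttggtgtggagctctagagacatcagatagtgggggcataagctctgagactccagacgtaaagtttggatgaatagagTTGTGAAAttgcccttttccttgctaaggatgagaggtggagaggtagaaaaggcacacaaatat
Wfdc17, chr11:83703806-83704105, plus strand: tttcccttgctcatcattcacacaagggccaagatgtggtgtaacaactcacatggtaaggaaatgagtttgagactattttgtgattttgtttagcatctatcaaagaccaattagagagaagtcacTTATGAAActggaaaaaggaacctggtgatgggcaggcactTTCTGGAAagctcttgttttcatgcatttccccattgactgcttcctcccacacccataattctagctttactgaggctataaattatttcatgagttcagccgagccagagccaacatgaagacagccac
C7, chr15:5063724-5064023, minus strand: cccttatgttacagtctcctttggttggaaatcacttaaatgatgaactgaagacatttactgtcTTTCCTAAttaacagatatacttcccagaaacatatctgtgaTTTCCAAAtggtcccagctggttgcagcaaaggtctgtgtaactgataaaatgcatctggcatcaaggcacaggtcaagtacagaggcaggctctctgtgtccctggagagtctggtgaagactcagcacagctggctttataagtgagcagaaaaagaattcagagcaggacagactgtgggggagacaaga
TTNNGNAA was in 3 of the 12 promoters, those shown, and in 31.3% of the 12978 promoters of tested autosomal genes. The promoter of Spp1 at its first start site held 0 matches. ACGTG, the core of HIF sites, was in 1 of the 12, that of Fuca1, and in 24.8% of all. Both strands were searched, and matches of the 2 cores did not overlap in these 12. A match describes letters in a window and is not a binding site.

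Cdh22, Dixdc1 and Fuca1 were also higher in males. Cdh22, a cadherin that joins cells, was at 3.97, 5.39 and 4.03 CPM in the males and 1.72, 1.59 and 1.67 CPM in the females, a difference of -1.43 ± 0.23 (adjusted p = 0.0388). Dixdc1, a DIX domain protein of Wnt signalling, was at 6.69, 8.86 and 7.8 CPM in the males and 3.02, 3.45 and 2.86 CPM in the females, a difference of -1.32 ± 0.17 (adjusted p = 0.00974). Fuca1, a lysosomal fucosidase, was at 38, 40.1 and 39.4 CPM in the males and 27.9, 27.8 and 26.9 CPM in the females, a difference of -0.51 ± 0.08 (adjusted p = 0.034). Cdh22 and Fuca1 were high in hypoxic males, with their normoxic libraries below them. Dixdc1 was low in hypoxic females, and its normoxic levels, 7.99, 10.2 and 10.4 CPM in the normoxic males and 8.7, 8.77 and 7.34 CPM in the normoxic females, were near those of the hypoxic males. Fuca1 had the smallest of the 13 differences, and its 3 values per sex lay close together.

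In Hdgfl2 and Zfp799 a whole group was at 0. Hdgfl2, a chromatin-binding relative of hepatoma-derived growth factor, had 106, 111 and 154 counts in the hypoxic males and 0 in each hypoxic female library (adjusted p = 1.98e-05). Its mean of 6.72 ± 1.31 CPM (SD, n = 3) in males was at least 37.8-fold higher than the floor of 3 counts in a female library. Normoxic libraries were not at 0, with 1.95, 2.88 and 3.04 CPM in the normoxic males and 5.86, 5.5 and 7.03 CPM in the normoxic females, and the females lay above the males there.

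Zfp799, a zinc finger protein, showed the reverse. It had 94, 98 and 81 counts in the hypoxic females and 0 in each of the other 9 libraries (adjusted p = 0.019), so that females were at least 25.4-fold higher than the floor of 3 counts in a male library. It passed the filter on low counts through the hypoxic females alone, so a gene at this level had to differ, and its test and its place among the 2 genes higher in females are a description. Spp1 also needed the hypoxic males to pass that filter, with 3 of them and 2 hypoxic females above its level of 0.571 CPM. Hdgfl2 and Zfp799 were each the 1 autosomal gene at 0 in every library of one hypoxic sex and at 50 or more counts in every library of the other. Single libraries also held such gaps: between 0 and 4 autosomal genes per library were at 0 there and at 50 or more counts in the other 11. The estimated counts share reads between transcripts, and whether that sharing plays a part in the zeros was not tested. Hdgfl2, Zfp799 and C4b all lie on chromosome 17, which holds 4.97% of the autosomal genes tested. Zfp799 is outside the rule for naming genes by its low mean level and is named because it passed.

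Itpkb, a kinase that converts inositol trisphosphate and so shapes calcium signals, was the other gene higher in females. It was at 105, 90.3 and 98.7 CPM in the males and 138, 156 and 164 CPM in the females, a difference of 0.64 ± 0.10 (adjusted p = 0.034). The female libraries did not overlap with the males, and the 6 normoxic libraries, at 101, 93.5 and 110.4 CPM in the normoxic males and 108, 101 and 109 CPM in the normoxic females, lay at the level of the hypoxic males.

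The next genes in that direction did not pass in edgeR or limma voom, and DESeq2 called each of the 6 named here. Tns2, the focal adhesion protein tensin 2, was at 45, 23.9 and 49.4 CPM in the males and 89.9, 127 and 93.6 CPM in the females, a difference of 1.39 ± 0.24 (adjusted p = 0.0629). MH replicate 2 was the lowest, and the normoxic levels, 92.1, 77.7 and 72 CPM in the normoxic males and 69.8, 77.7 and 90 CPM in the normoxic females, were near those of the hypoxic females. Kdr, the main receptor for VEGF on endothelial cells, was at 148, 114 and 153 CPM in the males and 223, 221 and 253 CPM in the females and differed by 0.75 ± 0.14 (adjusted p = 0.0841). Pcdh12, a protocadherin of endothelial cells, differed by 0.92 ± 0.16 (adjusted p = 0.0752). Plxna2, a semaphorin receptor, Syt7, a calcium sensor of vesicles, and Klhl31, a kelch protein of striated muscle, differed by 0.94, 0.57 and 0.77. In edgeR none of these 3 passed, with adjusted p from 0.118 to 0.125.

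No vessel growth gene passed in edgeR or limma voom, and DESeq2 called Kdr and Pgf. Of 26 tested, 7 had an unadjusted p under 0.05 and were higher in females, and 1 was higher in males, where 5.01% and 4.56% of all autosomal genes were. The median was 0.13, or 0.22 without MH replicates 2 and 3. Besides Kdr, these included Notch4, an endothelial Notch receptor, at 69.7, 71.2 and 60.3 CPM in the males and 73.9, 97.1 and 106 CPM in the females. Pgf, placental growth factor, went the other way, at 6.42, 7.67 and 7.09 CPM in the males and 1.66, 3.67 and 3.54 CPM in the females (adjusted p = 0.25). Vegfa was at 335, 289 and 269 CPM in the males and 369, 403 and 381 CPM in the females and did not pass (0.37 ± 0.15, adjusted p = 0.442), though the female libraries lay above the male ones. The 14 endothelial markers summed to 1769.9, 1877 and 2172 CPM in the males and 1772, 2181 and 2334 CPM in the females, with none at 0.

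No antigen presentation gene passed in edgeR or limma voom, and DESeq2 called 3 genes of class II. Cd74, the invariant chain that escorts class II molecules, was at 23.7, 20.1 and 24.6 CPM in the males and 39.9, 63.9 and 51 CPM in the females. The 2 chains of the class II molecule, H2-Aa and H2-Ab1, were at 9.67, 8.72 and 9.08 and 8.34, 7.05 and 6.37 CPM in the males and 16.1, 24.1 and 19.6 and 13, 19.5 and 15.5 CPM in the females. In all 3 the lowest female lay above the highest male, and none passed (adjusted p = 0.154, 0.198 and 0.21). In normoxia Cd74 was at 107, 150.4 and 76.9 CPM in the normoxic males and 102, 116 and 74.4 CPM in the normoxic females. These values lay above all its hypoxic ones, with the sexes overlapping. Cd74, H2-Aa and H2-Ab1 were the members of 14 tested with an unadjusted p under 0.05, where 5.01% of all autosomal genes were higher in females. The median of the list was 0.24.

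HIF targets lay in both directions. Of 21 tested 0 passed in edgeR or limma voom, and DESeq2 called Egln3. At an unadjusted p under 0.05, 4 were higher in females and 3 in males, where 5.01% and 4.56% of all autosomal genes were. The median was -0.062. Egln3, an oxygen-sensing hydroxylase, was at 104, 55.9 and 76.5 CPM in the males and 154, 175 and 155 CPM in the females, without overlap (adjusted p = 0.154). P4ha1, a collagen prolyl hydroxylase, was at 38, 39.7 and 40.3 CPM in the males and 48.5, 60.5 and 48.7 CPM in the females, without overlap (adjusted p = 0.309). Ankrd37 differed by -0.91 ± 0.30 at a very low level, at 0.662, 1.48 and 1.38 CPM in the males and 0.71, 0.493 and 0.677 CPM in the females. Among 23 genes of glycolysis and glucose uptake, Pfkl, a phosphofructokinase, and Hk1, a hexokinase, were higher in females at 0.52 and 0.31, and Pfkfb3, which makes an activator of phosphofructokinase, was lower at -0.50, all short of the threshold in edgeR (adjusted p = 0.198, 0.454 and 0.477), while DESeq2 called Pfkl.

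The medians of the matrix and valve lists turned their sign without MH replicates 2 and 3. Of 39 collagen and matrix genes, Spp1 alone passed, and the list's median was -0.14 with all libraries and 0.30 without MH replicates 2 and 3. Cthrc1, a secreted protein of activated fibroblasts, was at 2.45, 2.29 and 1.53 CPM in the males and 0.118, 0.329 and 0.833 CPM in the females, and Thbs2, thrombospondin 2, at 21.8, 24.4 and 22.1 CPM in the males and 15.7, 15.3 and 15.9 CPM in the females. Neither passed (adjusted p = 0.335 and 0.468). Both kept their direction without the 2 libraries, at -2.49 and -0.48.

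For 9 markers of valve, tendon and cartilage the median went from -1.19 to 0.45 when the 2 libraries were left out. Prg4, the joint lubricant lubricin, was at 22, 73.6 and 66.1 CPM in the males and 8.23, 12.8 and 16.3 CPM in the females. Comp, a cartilage matrix protein, was at 1.52, 24.6 and 10.2 CPM in the males and 1.78, 2.14 and 3.28 CPM in the females. MH replicates 2 and 3 were the highest libraries in both, and the summed level of the 12 markers was 66.5, 214 and 208 CPM in the males and 48.6, 121 and 108 CPM in the females. Wif1, a secreted Wnt inhibitor, followed them at 1.26, 5.72 and 5.51 CPM in the males and 0.414, 1.21 and 0.729 CPM in the females, and none of the 3 passed in edgeR, while DESeq2 called Prg4 and Wif1 (edgeR adjusted p = 0.118, 0.322 and 0.233). Among endocardial markers, Plvap, which spans the pores of vessel walls, and Cytl1, a secreted protein, differed by -1.32 and -1.14 and did not pass in edgeR (adjusted p = 0.166 and 0.231), while DESeq2 called both. Of 7 mesothelial and epicardial markers tested, 4 had a negative and 3 a positive difference. Their median was -0.24, or 0.53 without MH replicates 2 and 3. Among those with a positive difference, Wt1, an epicardial transcription factor that endothelial cells also use, was at 7.42, 7.77 and 8.67 CPM in the males and 11.8, 20.2 and 18.5 CPM in the females, without overlap. Wt1 was called by DESeq2 but not by edgeR (edgeR adjusted p = 0.155).

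In the stress response lists 0 genes passed in edgeR or limma voom, and DESeq2 called Herpud1. Over all 13413 autosomal genes tested, 6858 differences were negative and 6553 positive. All 16 genes for chaperones of the endoplasmic reticulum had a negative difference, with a median of -0.33, or -0.22 without MH replicates 2 and 3. Of these, 3 were higher in males at an unadjusted p under 0.05 (4.56% of all autosomal genes were), namely Herpud1, Pdia4 and Sdf2l1. None of the 3 passed. Herpud1, a protein of the degradation pathway there, was at 293, 307 and 202 CPM in the males and 194, 137 and 124 CPM in the females. Among 22 NRF2 antioxidant genes, 19 had a negative difference. Hmox1, the haem-degrading enzyme, was at 132, 98.4 and 88.2 CPM in the males and 42.6, 52.2 and 58.5 CPM in the females, without overlap, and did not pass (adjusted p = 0.453). Cytosolic heat shock genes had a positive difference in 13 of 14, with a median of 0.21, and Hsph1, a partner of Hsp70, was at 12.5, 10.9 and 10.2 CPM in the males and 25, 22.6 and 21.7 CPM in the females.

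In the growth control lists 0 genes passed in edgeR or limma voom, and DESeq2 called Cited2 and Fbxo32. Of 25 genes of TGF-beta and BMP signalling, 6 were higher in males and 1 in females at an unadjusted p under 0.05, where 4.56% and 5.01% of all autosomal genes were. Tgfbr3 and Tgfbr2, which are receptors, differed by -0.61 and -0.36, and the ligand Tgfb1 by 0.60. The median of that list was -0.36 with all libraries and 0.10 without MH replicates 2 and 3. Of 13 muscle atrophy and FoxO genes, 12 had a negative difference, as 6858 of the 13413 autosomal genes tested had. The median of the 13 was -0.38, or -0.43 without the 2 libraries. Cited2, a co-regulator that competes with HIF, was at 43.4, 44.2 and 36.1 CPM in the males and 27.6, 24.3 and 21.8 CPM in the females and did not pass (adjusted p = 0.0971). Fbxo32 and Trim63, the muscle ubiquitin ligases, differed by -0.94 and -0.49 (adjusted p = 0.283 and 0.51).

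Of 18 hypertrophy and fetal cardiac genes tested, 0 passed in edgeR or limma voom. In edgeR 2 had an unadjusted p under 0.05, where 9.57% of all autosomal genes had. DESeq2 called Myl4 and Myl7, the atrial light chains given above. Myh6 and Myh7, the adult and fetal myosin heavy chains, differed by 0.032 ± 0.27 and -0.14 ± 0.86, with overlapping ranges. Myh7 spread widely within each sex, at 105, 454 and 309 CPM in the males and 187, 139.9 and 458 CPM in the females. Nppb, the B-type natriuretic peptide, was at 198, 265 and 505 CPM in the males and 623, 346 and 705 CPM in the females and overlapped. Mki67, a marker of dividing cells, was at 19.4, 15.8 and 27.4 CPM in the males and 14.6, 29.9 and 30 CPM in the females and overlapped. Hba-a1, an alpha globin whose reads cannot be told from its copy Hba-a2, was at 4258, 4303 and 3648 CPM in the males and 4255, 2304 and 2962 CPM in the females, and FH replicates 2 and 3 were the lowest. Tfrc, the transferrin receptor, was at 32, 23.5 and 45.4 CPM in the males and 75.5, 97.3 and 92.6 CPM in the females, without overlap, and did not pass (adjusted p = 0.381). Actc1, cardiac actin, lay above the males in all 3 females and did not pass, at 0.49 ± 0.20 (adjusted p = 0.453).

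At an unadjusted p under 0.05, 0 of 29 mitosis genes, 0 of 21 DNA replication genes, 0 of 26 fatty acid oxidation genes, 0 of 34 oxidative phosphorylation genes and 0 of 17 tricarboxylic acid cycle genes differed in edgeR or DESeq2; limma voom gave 1, a fatty acid oxidation gene. Over all autosomal genes, 9.57% had such a p in edgeR. The medians of these lists lay between -0.0053 and 0.17. The median over 12 ventricular cardiomyocyte markers was -0.15. Of 18 sex steroid receptors and responsive genes, 1 differed at an unadjusted p under 0.05, namely Igfbp4, which binds insulin-like growth factors, at -0.46 ± 0.21 (adjusted p = 0.505); Esr1, the oestrogen receptor, had too few reads to be tested.

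**Figure D4:**
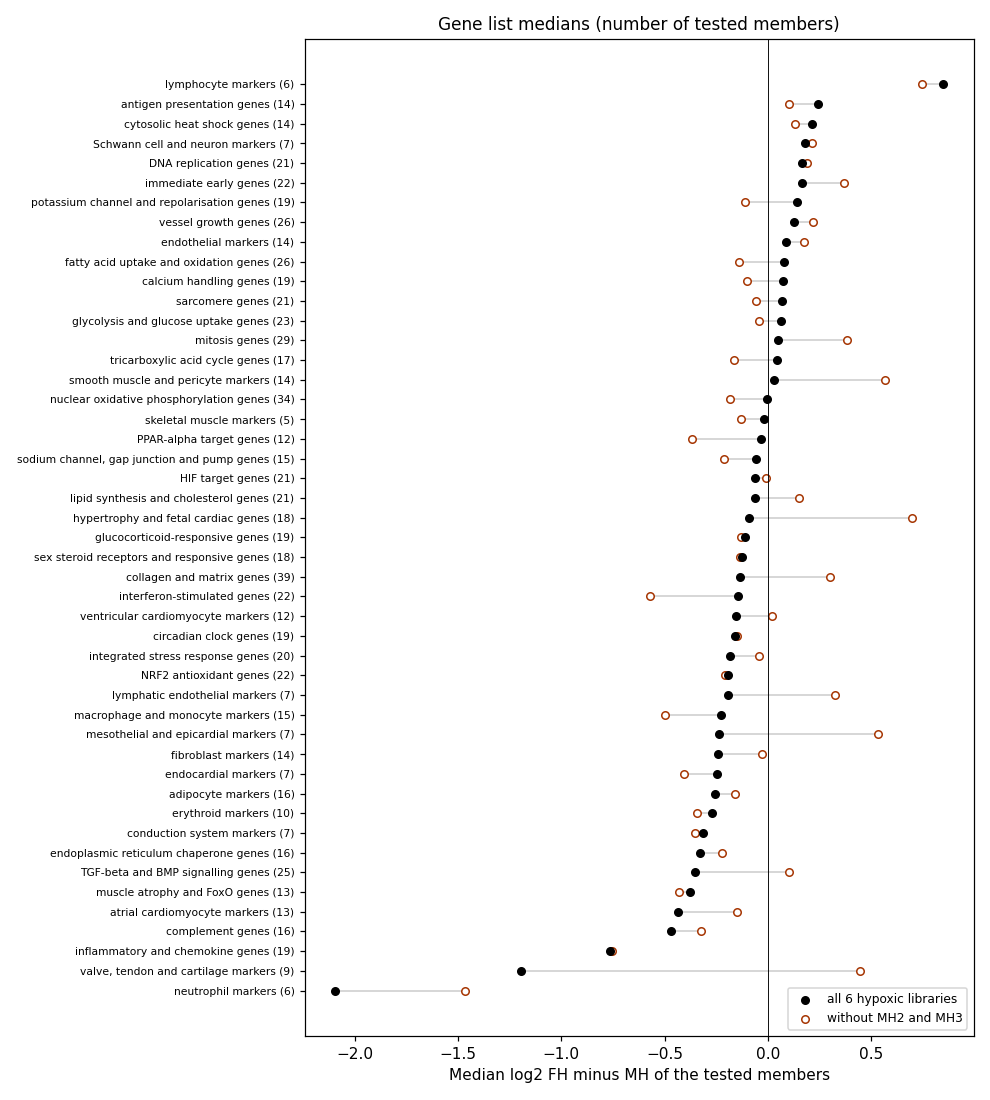
Median log2 difference of hypoxic females minus hypoxic males over the tested members of 47 gene lists with at least 5 of them, with all 6 hypoxic libraries (black) and without MH replicates 2 and 3 (open). Of the 47 medians, 31 lie below 0 with all libraries, and 14 have the other sign without the 2 libraries, the valve, tendon and cartilage list moving furthest.

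The sexes were compared at 20.9% oxygen in the same fit to see how far the hypoxic differences were also there. The 2 comparisons share no library. FN replicate 3 lay at -70.5 on the second principal component of all 12 libraries, where the others lay between -9.9 and 17.6. Its immediate early genes summed to 2200 CPM, against 647 and 401 CPM in FN replicates 1 and 2. It enters this comparison and the interaction below. Without FN replicate 3, 643 genes had an unadjusted p under 0.05 in edgeR and 0 passed. In normoxia 2 autosomal genes passed (0.0149%), both higher in females, 42 by DESeq2 (0.286%) and 0 by limma voom, where 910 had an unadjusted p under 0.05. With p adjusted over autosomal genes alone, 0 passed in edgeR, where 978 had an unadjusted p under 0.05. The 2 were Eps8, an actin regulator, and Rpl35a-ps2, a pseudogene of a ribosomal protein whose reads cannot be told with certainty from its parent gene. None of the 13 genes above passed in normoxia. The sign was the same there in 8 of the 13, while Zfp799, at 0 in each normoxic library, had none. The share with the same sign over all genes was not taken, so nothing is read from the 8. An unadjusted p under 0.05 was found in normoxia for 4 of the 13, where 7.29% of all genes had one. Of these 4, C7, Cdh22 and Cxcl14 had a negative difference at both oxygen levels, at -1.08, -0.88 and -0.77 in normoxia, and Hdgfl2 had the other sign at 1.22. Over all autosomal genes, 152 had an unadjusted p under 0.05 at both oxygen levels, and 109 of these had the same sign.

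The difference between the sexes was itself compared between oxygen levels, as hypoxia minus normoxia. In this test of the interaction, 1 autosomal gene passed (0.00746%), Hdgfl2, at -11.09 ± 0.59 (adjusted p = 0.000128), a fitted value that depends on the prior count because the hypoxic females are at 0. The 7 genes with the next smallest p did not pass. C4b had an interaction of -2.35 ± 0.35 (adjusted p = 0.0973): its sexes differed by -2.05 in hypoxia and by 0.30 in normoxia. Ccl9 and Ccl6, both chemokines of myeloid cells, had -1.74 ± 0.25 and -1.70 ± 0.28 (adjusted p = 0.0973 and 0.118).

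Ccl9 was at 7.99, 7.34 and 7.19 CPM in the normoxic males and 15.3, 18.3 and 14.1 CPM in the normoxic females, and at 23, 24.3 and 17.4 CPM in hypoxic males and 11.5, 12.4 and 17 CPM in hypoxic females. The females lay above the males in normoxia and below them in hypoxia, without overlap. Slc26a10, of an anion transporter family, had the reverse order, at 0.72 in hypoxia and -0.72 in normoxia (interaction adjusted p = 0.0973). Nt5e, the enzyme CD73 that makes adenosine outside cells, was at -0.31 in hypoxia and 0.66 in normoxia. Eps8 was at -0.22 and 0.83. Rpl35a-ps2 was listed at 0 in all 3 normoxic males and overlapped in hypoxia, at 2.45, 18.3 and 8.87 CPM in the males and 5.86, 9.2 and 8.48 CPM in the females. Of the 13 genes, 9 had an unadjusted interaction p under 0.05 (6.84% of all tested genes had); the hypoxic difference that chose the 13 is a term of the interaction, so nothing is read from that count.

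**Figure D5:**
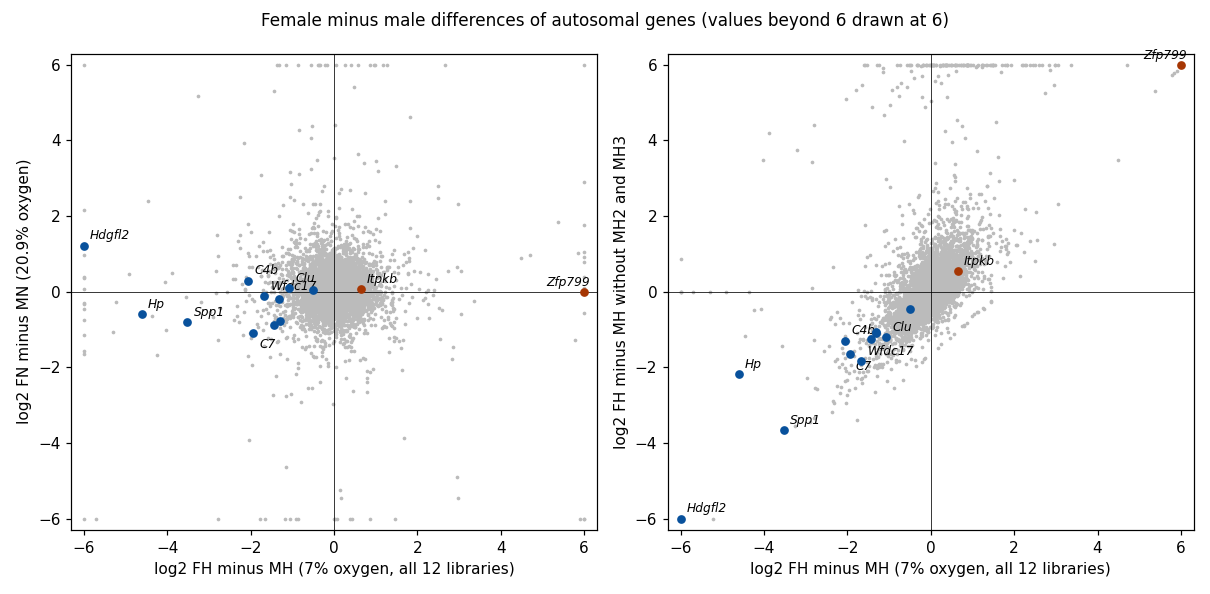
Log2 difference of females minus males for each tested autosomal gene: hypoxia with all libraries on the horizontal axes, against normoxia (left) and against hypoxia without MH replicates 2 and 3 (right), with the 13 genes past the threshold in colour and values beyond 6 drawn at 6. On the normoxia axis the 13 lie between -1.08 (C7) and 1.22 (Hdgfl2). There 8 of them have the sign they have in hypoxia, and Zfp799, at 0 in each normoxic library, has none. The 13 keep their sign on the axis without MH replicates 2 and 3.

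Without MH replicates 2 and 3, the male group is MH replicate 1, whose spread is then taken to be that of the other groups. Of 14083 autosomal genes tested, 9 passed (0.0639%), of which 7 were higher in females (0.0497%) and 2, C4b and Hdgfl2, higher in males (0.0142%). Limma voom called 11 genes there, all higher in males, and DESeq2 37, of which 26 were higher in females and 11 in males, so the direction of the calls depended on the tool. Of the 7, 6 were listed at 0 in MH replicate 1: Morc3, Ube2l3, Daam1, Cradd, Pcgf6 and Ociad2. These 6 and Nfkb2 are named after their values were seen. Morc3, a chromatin protein, shows the pattern, at 0, 20.7 and 20.5 CPM in the males and 17.3, 18.5 and 18.2 CPM in the females. The seventh, Nfkb2, a subunit of NF-kB, was at 5.3, 17.4 and 16.4 CPM in the males and 25.3, 24.5 and 23.4 CPM in the females, and MH replicate 1 was the lowest of the 6. When genes at 0 in a library and at 50 or more counts in another were left out, Nfkb2 alone passed (adjusted p = 0.0466); C4b did not, and Hdgfl2 was among the genes left out.

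The 6 hypoxic libraries also varied in a direction that sex did not set. On their first principal component, with 27.6% of the variance, lay MH replicate 1 at -32.1 and FH replicate 1 at -48, with the other 4 between 16.6 and 29.2. The second held 23.8% and separated the females, between -29.6 and -21.5, from the males, between 5.47 and 38.6. Without MH replicate 1 and FH replicate 1 together, 21 autosomal genes passed, 6 of them among the 13.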

How the data were processed

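Ventricular RNA of 12 libraries, 3 for each sex and oxygen level, was sequenced with a directional kit, per the labels. The submitters' processing notes name FastQC, Salmon and GRCm39, without versions; which annotation and strand setting were used is not given in the sources used here. The authors deposited, per the file headers, an estimated count, a TPM value and an average transcript length for each gene and library, not scaled from abundance. TPM was used only to look at levels, and lengths only as an offset in an alternative fit. Symbols and chromosome classes came from GENCODE M21, which matched 38941 of 39210 gene IDs.

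Estimated counts were rounded. Genes passing edgeR's filterByExpr over the 4 groups were fitted by edgeR 4.0.16 in R 4.3.3, with TMM factors and a mean per group over all 12 libraries (8 residual degrees of freedom). The quasi-likelihood test gave p-values, adjusted by Benjamini and Hochberg over all 13960 genes tested. On simulated counts this recovered 64% of 100 genes changed 2-fold and 87% of 100 changed 4-fold among 13705 genes for the hypoxic comparison, and called 7 unchanged genes. Floors cover counting error only, and standard errors and SDs the spread between libraries.

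Named genes are those past the threshold that did not overlap and had a mean log2 CPM from 1 up, those nearest to it where fewer than 5 passed in a direction, the 8 genes with the smallest interaction p, atrial and fat markers, members of the described lists with the smallest p, and 8 preset heart genes; others are said to be named after their values were seen. A gene of this rule that is withheld is not reported here. Members and the 49 gene lists were chosen with earlier results of these data known. Alternatives were DESeq2 1.42.0, limma 3.58.1 (voom), other scalings, filters, adjustments, the replicate number as a block and libraries left out. X, Y and mitochondrial genes were fitted but not reported.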

Additional observations from a re-analysis of the deposited data

Results flagged for a closer look

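Hdgfl2 was singled out because its difference between the sexes changed with oxygen, by a test of that change itself. The log2 difference of females minus males, taken as hypoxia minus normoxia, was -11.09 (edgeR interaction term, adjusted p = 0.000128). The hypoxic females were at 0 in 3 of 3 libraries, and the hypoxic males and all normoxic libraries were not, so the fitted size depends on the prior count. Whether the sharing of reads between transcripts plays a part was not tested.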

How the results depend on the processing

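For hypoxic females against hypoxic males, 13 genes passed. RLE or upper quartile factors, limma voom and a stricter count filter gave 13 and no filter 16, whereas DESeq2 gave 162, transcript length offsets 6, adjustment over autosomal genes or removal of X, Y and mitochondrial genes 6, a test against a log2 fold of 1 gave 3, and the 6 hypoxic libraries alone 7, of which 3 are among the 13. Leaving out 1 library gave 4 to 32, and leaving out FH replicate 1 and MH replicate 1, which was chosen after seeing the data, 21. Of 11 genes with at least a 2-fold difference, the counts were 66 by DESeq2, 6 with length offsets, 6 with autosomal adjustment, 6 with X, Y and mitochondrial genes removed, 6 from the hypoxic libraries alone and 4 to 27 with 1 library left out. The 2 normoxic genes became 42 by DESeq2, 1 from the normoxic libraries alone, 0 to 1 with 1 library left out (643 to 1312 at an unadjusted p under 0.05), and 0 by limma voom (910 at an unadjusted p under 0.05), autosomal adjustment (978), removal of X, Y and mitochondrial genes (988), the test against a log2 fold of 1 (61) and removal of genes with a 0 beside 50 or more counts (983), also chosen after seeing the data. The 1 interaction gene became 57 by DESeq2, 2 by limma voom, 6 without a filter, 0 with the genes with a 0 removed (945 at an unadjusted p under 0.05), 1 to 5 with 1 library left out, 6 without MH replicates 2 and 3, 6 without those and FH replicate 1, and 5 without FH replicate 1 and MH replicate 1. The 9 genes without MH replicates 2 and 3 became 37 by DESeq2, 11 by limma voom (0 higher in females, against 7 of the 9), 17 without a filter, 5 with autosomal adjustment, 5 against a log2 fold of 1, 1 with the genes with a 0 removed, 1 from the 4 hypoxic libraries alone and 7 to 12 with 1 library left out. The cause of these moves was not tested.

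The numbers of the replicates were also used as a block. Libraries of the same number correlated in their deviations from the group means with r = 0.192, 0.0493 and 0.0849 for numbers 1, 2 and 3. The value of number 1 was the highest of all pairs. MH replicate 1 and FH replicate 1 also lay apart from the other hypoxic libraries on their first principal component. Whether a factor goes with the replicate number was not tested. Not every sample correlated best with its own number. With the replicate block, 7 genes passed for hypoxia, 4 of them among the 13, 7 with at least a 2-fold difference, 0 for normoxia (1068 at an unadjusted p under 0.05), 1 for the interaction and 7 without MH replicates 2 and 3.

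Among the genes named, log2 differences that did not pass had the other sign in these settings. Without MH replicates 2 and 3, Rpl35a-ps2 was at 1.68, Myl7 at 0.86, Nppa at 0.21, Dkk3 at 0.91, Plin4 at -0.21, Car3 at 0.090, Comp at 0.65, Myh6 at -0.27 and Myh7 at 1.31. Without FH replicate 1 as well, Rpl35a-ps2 was at 1.86, Myl7 at 1.13, Nppa at 0.65, Dkk3 at 1.31, Fabp4 at 0.085, Plin4 at -0.41, Cfd at 0.092, Car3 at 0.40, Comp at 0.84, Igfbp4 at 0.14, Myh6 at -0.71 and Myh7 at 1.52. With 1 library left out, Rpl35a-ps2 ran from -0.79 to 0.46, Kcnj3 from -0.45 to 0.024, Myh6 from -0.41 to 0.27, Myh7 from -0.82 to 0.34 and Morc3 from -0.19 to 0.79. Without FH replicate 1 and MH replicate 1, Myh6 was at -0.24 and Morc3 at -0.17, and by limma voom Myh6 was at -0.046. The other gene results kept their direction, 1844 on the same side of the threshold, 126 losing and 58 gaining the threshold. At 3 libraries a group, a difference that missed the threshold is not shown to be absent.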
